A study of Mus musculus with 22 samples.

Results

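The *Obox* (oocyte-specific homeobox) genes *Obox1*, *Obox2*, *Obox3*, *Obox5*, *Obox6* and *Obox7* were followed in RNA-seq libraries of fully-grown germinal vesicle-intact (GV) mouse oocytes. They were chosen by gene symbol and not by a cutoff on their values, though earlier results of these data were known. They are 6 of the 52636 annotated genes in the counting table. Another 49 genes of the table, nearly all annotated pseudogenes, carry an *Obox* symbol and are used for comparison. The study asked what oocytes lose when RNA interference (RNAi), the piRNA pathway or both are removed. It held 22 libraries in 2 sequencing runs, each from a pool of GV oocytes of C57BL/6 females.

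The single-end run compared *Dicer* alleles. There were 3 libraries of wild type (*Dicer* WT/WT), 4 of *Dicer* ΔMT/ΔMT, 3 of *Dicer* SOM/SOM and a single one of *Dicer* ΔMT/WT, and their labels give no ages. The ΔMT allele lacks the main retrotransposon promoter of the short oocyte Dicer that makes siRNAs, although another retrotransposon insertion can still give some. The SOM allele lacks introns in that part of the gene, carries an HA tag and makes full-length Dicer only. The paired-end run held 4 double mutants of 40, 35, 11 and 11 weeks, homozygous for both *Mili* DAH and *Dicer* SOM. The RNAi mutants, of 17 and 13 weeks, were homozygous for *Dicer* SOM and carried *Mili* DAH/WT. The piRNA mutant, a single library of 16 weeks, was homozygous for *Mili* DAH with *Dicer* SOM/WT. The heterozygous controls, of 36, 38, 10 and 17 weeks, carried *Dicer* SOM/WT together with *Mili* DAH/WT. The DAH allele makes a catalytically inactive MILI. Every paired-end library, controls included, thus carried at least 1 mutant allele of both genes, and the controls were not wild type. The labels do not name the females. Ages differ within each replicated paired-end genotype, so its libraries came from separate females, except perhaps the double mutants of 11 weeks. The single-end labels cannot show this. The paper calls the RNA-seq replicates of wild type and the homozygous *Dicer* mutants biological, and those of controls and double mutants too. The p-values measure the spread between the libraries of both runs, part of which may be technical.

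Homeobox genes encode transcription factors that bind DNA through a homeodomain. The *Obox* genes form a cluster on mouse chromosome 7 that grew by repeated duplication, and they are transcribed mainly in the female germline and the early embryo. *Obox1*, *Obox2*, *Obox5* and *Obox7* are known as maternal members, whose transcripts are stored in the oocyte. *Obox3*, like *Obox4*, is known for expression after fertilisation, around the activation of the embryonic genome. OBOX proteins act redundantly in that activation, and mice without *Obox6* are fertile.

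In the annotation the *Obox* symbols of the cluster reached from chr7:14331436 to chr7:15839678 (GRCm38), a span that held 53 of the 55 genes with such a symbol and 31 other genes. From the centromere side, *Obox7* lay at chr7:14659496-14665996 on the plus strand and *Obox2* at chr7:15388721-15398545 on the plus strand. *Obox1* was annotated at chr7:15388948-15556866 on the plus strand, and the first exon of 1 of its transcripts fell inside the first exon of *Obox2*. *Obox3* lay at chr7:15479825-15639902 on the minus strand, *Obox5* at chr7:15750377-15759800 on the plus strand and *Obox6* at chr7:15833241-15839678 on the minus strand. *Obox1* and *Obox2* shared 59 exon bases, 3.35% of the exon bases of *Obox1* and 3.58% of those of *Obox2*, and the exons of the other members overlapped no other gene.

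The following coding stretch lies within 1 exon and ends shortly before the most conserved residues of the third helix of the homeodomain. It is printed because it shows how alike the copies are at the length of a read. It was read from the GENCODE M21 transcripts (GRCm38), runs from the transcript's 5′ to 3′ end, and has 75 bases, except 74 in *Obox2*. Capitals mark bases that differ from *Obox1*.
Obox1 (chr7:15555630-15555704, plus strand): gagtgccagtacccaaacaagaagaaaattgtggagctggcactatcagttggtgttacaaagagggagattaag
Obox2 (chr7:15397313-15397386, plus strand): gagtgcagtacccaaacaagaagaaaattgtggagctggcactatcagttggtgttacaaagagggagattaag
Obox3 (chr7:15626796-15626870, minus strand): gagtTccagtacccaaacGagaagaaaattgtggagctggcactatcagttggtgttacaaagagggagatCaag
Obox5 (chr7:15758004-15758078, plus strand): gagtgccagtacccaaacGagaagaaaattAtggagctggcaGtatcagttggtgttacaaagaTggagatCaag
Obox7 (chr7:14664505-14664579, plus strand): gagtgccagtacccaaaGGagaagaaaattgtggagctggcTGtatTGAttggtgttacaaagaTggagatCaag
Obox6 (chr7:15834380-15834454, minus strand): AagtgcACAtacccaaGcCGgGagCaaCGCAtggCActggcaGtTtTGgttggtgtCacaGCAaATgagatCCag

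*Obox2* differed from *Obox1* here only by 1 base fewer, and its annotated reading frame did not hold the conserved residues of the third helix that follow. *Obox3* differed from *Obox1* at 3 bases, *Obox5* at 5, *Obox7* at 9 and *Obox6* at 27. Over the aligned coding sequence, *Obox1* was 98.5% identical to *Obox2*, 95.6% to *Obox5*, 94.0% to *Obox3*, 93.8% to *Obox7* and 77.6% to *Obox6*. *Obox3* also had close pseudogenes. *Obox3-ps3*, which differed from it at 1 base of the same stretch, is shown with that base in capitals.
Obox3-ps3 (chr7:14932696-14932770, minus strand): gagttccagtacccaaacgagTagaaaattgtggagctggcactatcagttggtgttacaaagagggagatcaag

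Reads that fit several places or genes were divided among them when the authors counted, so these identities decide how well each gene can be told from its copies. Of all windows of 50 bases (the read length of the single-end run) in the transcript with the longest coding sequence, 59.3% for *Obox1* and 63.0% for *Obox2* also stood in a transcript of another gene. For *Obox3* it was 32.7%, for *Obox7* 20.2%, for *Obox5* 13.0% and for *Obox6* 5.02%. At 75 bases, the read length of the paired-end run, the shares were 47.1% for *Obox1*, 48.9% for *Obox2*, 21.5% for *Obox3*, 7.13% for *Obox7*, 3.47% for *Obox5* and 1.34% for *Obox6*. These windows stand for single reads, and how often both reads of a pair fell in shared sequence was not counted. *Obox1* and *Obox2* shared windows mainly with each other, and *Obox3* mainly with *Obox3-ps3*. The levels of *Obox1*, *Obox2* and *Obox3* are therefore uncertain between copies, and their values in the 2 runs are not compared.

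The start regions were alike as well. Shown is the 30-base stretch around the motif TATATAA (capitals), read from RefSeq windows of 250 bases before to 50 bases after each annotated start (GRCm38.p6).
Obox1 (chr7:15547228-15547257, plus strand): tttgcagagaTATATAAgggcaggtcttct
Obox5 (chr7:15750329-15750358, plus strand): tttgcagagaTATATAAgggcaggtcttct
Obox7 (chr7:14659693-14659722, plus strand): tttgcagagaTATATAAgggcaggtcttct
Obox3 (chr7:15639788-15639817, minus strand): tttggagagaTATATAAgggcaggtcttct

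The motif began 31 bases before the annotated start of *Obox5*, 30 before that of *Obox3*, 19 before that of *Obox1* and 5 before that of *Obox7*. The window of *Obox2* did not hold these letters on either strand, and no window was given for *Obox6*. Of all 32851 promoter windows, 3.24% held the motif on either strand and 2.20% on the strand of the gene, as in the members shown.

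Single-end libraries totalled 6468380 to 90713013 estimated counts and paired-end libraries 22928936 to 43540806. The lowest total belonged to *Dicer* SOM/SOM replicate 3, in which 3 counts, the smallest amount taken as detected, came to 0.435 CPM (the count scaled to a common library size), against at most 0.0625 CPM in the other single-end libraries. *Dicer* SOM/SOM replicates 1 and 3 also stood apart by *Gm42418*, an annotated gene that overlaps ribosomal RNA sequence, at 12900 and 17400 CPM against 4800 to 7620 CPM in the other single-end libraries. Such floors cover counting error only, since amplified copies of 1 molecule were not collapsed. *Dicer1* was measured first as a check of the labels, at 1020 ± 31.5 CPM in wild type (SD, n = 3), 488 ± 46.1 in *Dicer* ΔMT/ΔMT (n = 4) and 49.9 ± 6.96 in *Dicer* SOM/SOM (n = 3). In the paired-end run it was at 639 ± 110 CPM in controls (n = 4), 57.9 ± 5.86 in RNAi mutants (n = 2) and 57.6 ± 3.24 in double mutants (n = 4). The 14 oocyte markers summed to at least 13977 CPM in every library. The 19 granulosa and cumulus markers summed to at most 271 CPM in any library, of which *Esr2* and *Nr5a2* alone reached 109 and 92.5. Others of the 19 reached 46.5 CPM (*Hsd3b1*), 45.1 CPM (*Inhba*) and 25.2 CPM (*Cyp19a1*), while *Ptx3* and *Tnfaip6* were at most 0.172 CPM. The 11 blood and immune markers summed to at most 151 CPM, mostly from *Ighm* and *Ms4a1*. Among them *Cd68* reached 32.8 CPM, and the 4 globin genes did not exceed 0.133 CPM. In the paired-end run the libraries also parted by *Gm42418*. It was at 294 to 557 CPM in 5 libraries (double mutants 2o and 2, the piRNA mutant, controls 2o and 2) and at 4080 to 5500 CPM in the other 6. In bulk libraries, fewer cells of a type and less RNA per cell cannot be told apart.

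All 6 members were detected, over more than 3 orders of magnitude. On a scale per exon length (CPM per kb), *Obox2* was highest in wild type at 443 ± 22.1 (SD, n = 3), followed by *Obox1* at 326 ± 19.9, *Obox5* at 190 ± 7.71 and *Obox7* at 78.3 ± 7.26. *Obox3* was at 2.21 ± 0.209 CPM per kb and *Obox6* at 0.138 ± 0.0520. Among the 23151 genes tested in that run, *Obox2* ranked 64 by this level, *Obox1* 104, *Obox5* 236 and *Obox7* 797, whereas *Obox3* ranked 11407 and *Obox6* 20149.

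The order *Obox2*, *Obox1*, *Obox5*, *Obox7*, *Obox3*, *Obox6* held in all 11 single-end libraries and in 10 of 11 paired-end libraries. In control replicate 2 *Obox5* stood above *Obox1*, at 337 against 318 CPM per kb. In paired-end controls the levels were 467 ± 111 CPM per kb for *Obox2* (SD, n = 4), 262 ± 41.4 for *Obox1* and 234 ± 73.7 for *Obox5*. *Obox7* was at 74.5 ± 25.9, *Obox3* at 1.50 ± 0.681 and *Obox6* at 0.135 ± 0.0265 CPM per kb. The spreads of *Obox1* and *Obox5* overlapped, but both genes were measured in the same libraries, and their difference was not tested. *Obox6* had 1.53 to 47.8 estimated counts in the single-end libraries and 3.83 to 16.2 in the paired-end libraries, and it did not pass the filter on low counts in the paired-end run. As a share of the counts of the 6 members, *Obox2* took 37.9 to 41.8% in single-end libraries, *Obox1* 31.0 to 33.9%, *Obox5* 18.0 to 22.5% and *Obox7* 6.28 to 7.76%, while *Obox3* stayed between 0.276 and 0.391%. The members held 95.8 to 96.9% of all counts on *Obox* symbols in that run and 97.6 to 99.1% in the paired-end run.

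**Figure D1:**
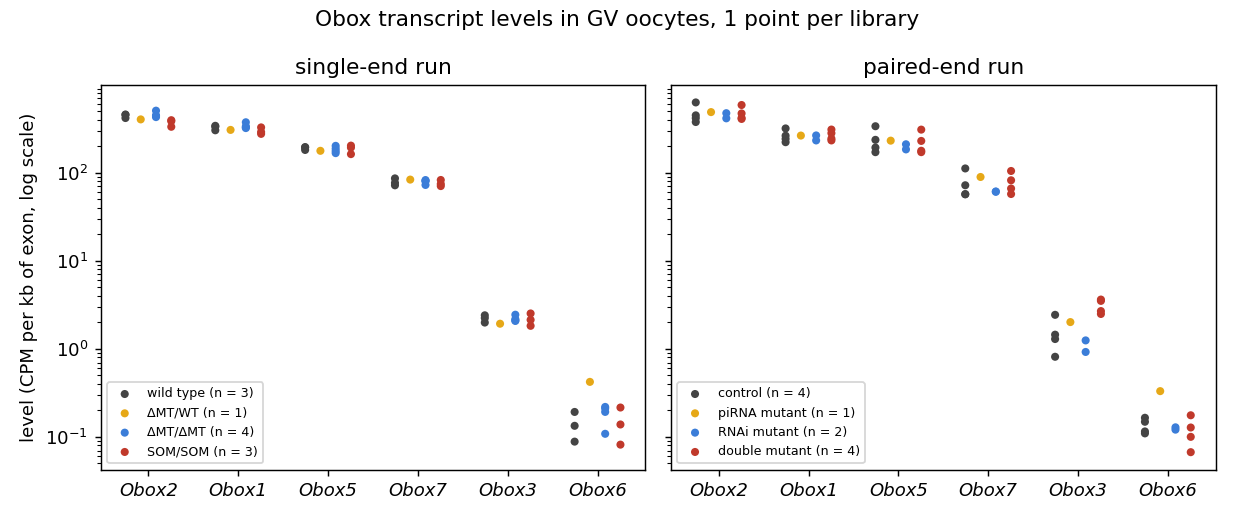
Level of each *Obox* gene (CPM per kb of exon, log scale) in every library, single-end run at left and paired-end run at right, 1 point per library and colours for genotypes. The 4 maternal members sit above 50 CPM per kb in every library, *Obox3* between 0.813 and 3.63 and *Obox6* at most at 0.422.

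The first question was what the loss of oocyte Dicer does to these transcripts. In *Dicer* ΔMT/ΔMT oocytes 0 of 6 members passed the threshold (edgeR's quasi-likelihood test, Benjamini-Hochberg adjusted p under 0.05 over all genes), where 15.4% of the 23151 genes tested did. The members had log2 fold changes between −0.05 and 0.42 with a median of 0.03, against 0.01 over all genes. No member had an unadjusted p under 0.05, and DESeq2 called 0 as well. The intervals were narrow for the abundant members: the 95% interval of the log2 fold change ran from −0.13 to 0.25 for *Obox1*, from −0.15 to 0.23 for *Obox2*, from −0.26 to 0.15 for *Obox5* and from −0.19 to 0.21 for *Obox7*. *Obox3* had −0.31 to 0.29, and *Obox6*, with few counts, −0.57 to 1.40.

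In *Dicer* SOM/SOM against wild-type oocytes 28.6% of all genes tested were called, and 0 of 6 members. All 6 members had a negative log2 fold change, from −0.26 to −0.03 with a median of −0.10, against 0.02 over all genes. *Obox2* came closest to the threshold and was the 1 member with an unadjusted p under 0.05. Its level was 688, 748 and 754 CPM in wild type, 725, 736, 834 and 705 CPM in *Dicer* ΔMT/ΔMT and 650, 547 and 633 CPM in *Dicer* SOM/SOM. Every *Dicer* SOM/SOM library lay below every library of the other 2 genotypes. How many of all genes part genotypes without overlap was not counted, here or for *Obox3* below. Such a separation is therefore not read as particular to these members. The log2 fold change against wild type was −0.26 (SE 0.09, 95% interval −0.46 to −0.06, adjusted p = 0.0570, edgeR), a fold of 0.836. The call depended on the tool: it passed with DESeq2 (adjusted p = 0.0324), with DESeq2 size factors in edgeR (0.0466) and without *Dicer* SOM/SOM replicate 1 (0.0484), within a range of 0.0324 to 0.151 over all alternatives.

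*Obox1*, which shares most of its windows with *Obox2*, was at 534, 600 and 587 CPM in wild type and at 576, 486 and 511 CPM in *Dicer* SOM/SOM. These groups overlapped, and the log2 fold change was −0.13 (SE 0.09, 95% interval −0.33 to 0.07). *Obox5* was at 332, 355 and 358 CPM in wild type and at 353, 298 and 372 CPM in *Dicer* SOM/SOM, with −0.03 (SE 0.10). *Obox7* was at 111, 118 and 133 CPM against 115, 109 and 128 CPM, with −0.05 (SE 0.10). For these members wild-type and mutant levels were interleaved.

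*Obox3* was at 6.08, 5.03 and 5.66 CPM in wild type, 5.50, 5.32, 6.17 and 5.25 CPM in *Dicer* ΔMT/ΔMT and 5.40, 4.62 and 6.38 CPM in *Dicer* SOM/SOM. The 3 genotypes overlapped, with log2 fold changes against wild type of −0.01 (SE 0.14) and −0.07 (SE 0.15, 95% interval −0.40 to 0.27). *Obox6* was at 0.119, 0.258 and 0.180 CPM in wild type, 0.146, 0.295, 0.259 and 0.284 CPM in *Dicer* ΔMT/ΔMT, and 0.186 and 0.110 CPM in *Dicer* SOM/SOM replicates 1 and 2. *Dicer* SOM/SOM replicate 3 had 1.53 estimated counts of it, under the 3 counts taken as detected. A 2-fold difference of *Obox6* in either direction was not excluded, since its interval in *Dicer* SOM/SOM against wild type ran from −1.31 to 1.01.

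Between the mutants, 7.35% of all genes tested were called in *Dicer* SOM/SOM relative to *Dicer* ΔMT/ΔMT, and 0 of 6 members. *Obox2* had a log2 fold change of −0.30 (SE 0.09, edgeR adjusted p = 0.0638, 0.0190 with DESeq2, range over all alternatives 0.0190 to 0.142), and *Obox1* had −0.19 (SE 0.09, adjusted p = 0.213). These were the 2 members with an unadjusted p under 0.05. *Obox5* had 0.02 (SE 0.09) and *Obox7* −0.06 (SE 0.09). The summed counts of the 6 members were on average −0.16 log2 units from wild type in *Dicer* SOM/SOM, and 0.03 log2 units in *Dicer* ΔMT/ΔMT. These sums were 1671 to 1837 CPM in wild type and 1444 to 1699 CPM in *Dicer* SOM/SOM and overlapped. The single *Dicer* ΔMT/WT library had 664 CPM of *Obox2*, 539 of *Obox1*, 325 of *Obox5*, 129 of *Obox7* and 4.88 of *Obox3*. Of these, *Obox1* and *Obox7* lay within the range of wild type and the others below it.

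**Figure D2:**
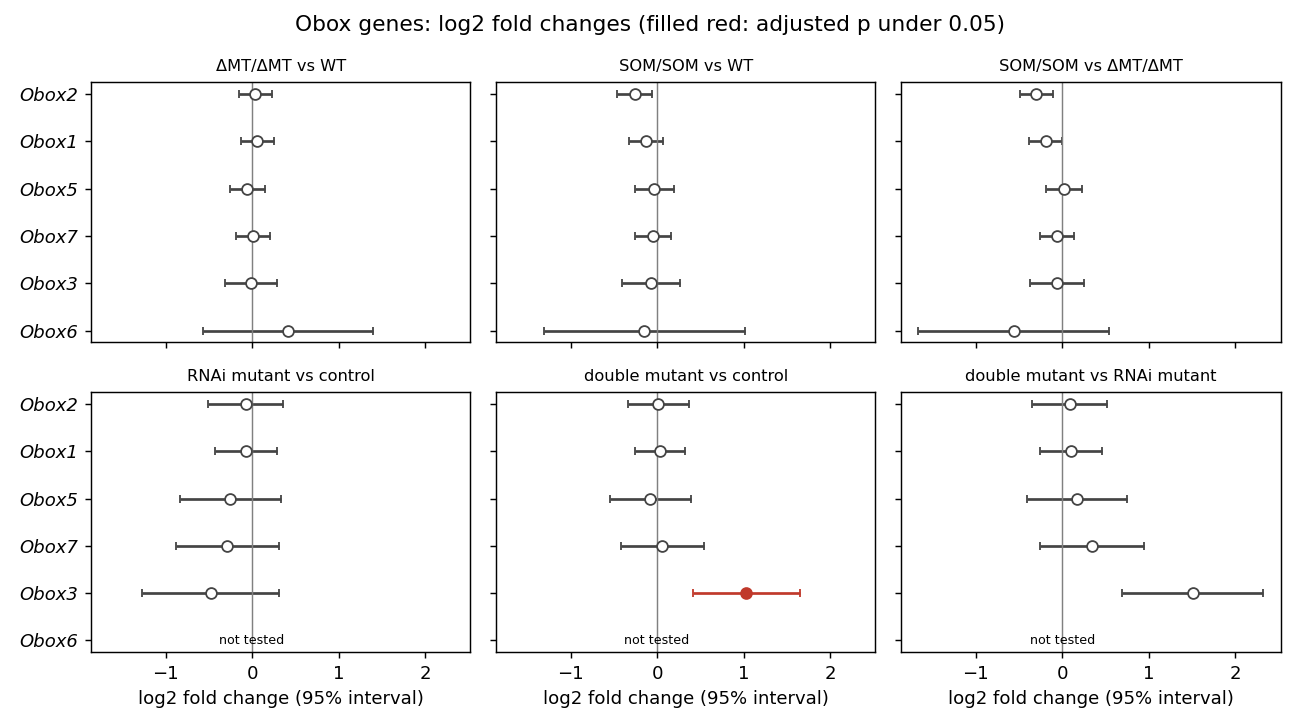
Log2 fold change of each *Obox* gene in 6 comparisons (horizontal axis, with 95% intervals from edgeR), filled red where the adjusted p was under 0.05. *Obox3* in double mutants against controls, at 1.03, is the filled point, and *Obox6* was not tested in the paired-end run.

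The second question was what is added when the piRNA pathway is disabled too. In RNAi mutants against heterozygous controls 10.7% of the 20989 genes tested in the paired-end run were called, and 0 of the 5 members tested. Their log2 fold changes ran from −0.48 (*Obox3*) to −0.07 (*Obox1*), with a median of −0.25 against −0.02 over all genes, and none had an unadjusted p under 0.05. These signs did not hold among the libraries with high *Gm42418* described above, to which both RNAi mutants belonged: against the 2 controls of that set all 5 values were above 0, from 0.02 (*Obox3*) to 0.12 (*Obox5*), and none was called. In double mutants against controls 21.2% of genes were called, and 1 of the 5 members, *Obox3*, which was higher. The other 4 had log2 fold changes between −0.08 and 0.06. From RNAi mutants to double mutants 0.314% of genes were called, 66 in all, and 0 of the 5 members.

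*Obox3* was at 6.79, 6.30, 9.17 and 8.86 CPM in double mutants of 40, 35, 11 and 11 weeks, and at 3.27, 3.66, 6.16 and 2.06 CPM in controls of 36, 38, 10 and 17 weeks. The RNAi mutants had 3.15 and 2.33 CPM and the piRNA mutant 5.09 CPM. Every double mutant lay above every control, though the lowest double mutant and the highest control, at 6.30 and 6.16 CPM, nearly met. The log2 fold change of double mutants against controls was 1.03 (SE 0.29, 95% interval 0.41 to 1.65, adjusted p = 0.0197, edgeR), a fold of 2.04, and the range of adjusted p over all alternatives was 0.00237 to 0.402. Leaving out double mutant replicate 1 or control replicate 1o moved the adjusted p to 0.0546 and 0.0568, and the replicate number as a block moved it to 0.0574 (edgeR).

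The 2 sets of libraries parted by *Gm42418* gave unequal differences. In the set with high *Gm42418*, *Obox3* averaged 7.98 CPM in 2 double mutants and 2.66 CPM in 2 controls, a log2 fold change of 1.60 (adjusted p = 0.00793, edgeR). In the set with low *Gm42418*, it averaged 7.58 and 4.91 CPM, a log2 fold change of 0.63 (adjusted p = 0.402). With the *Gm42418* level as a covariate over all libraries the value was 1.10 (adjusted p = 0.0121). The sets were parted after the values were seen and compare 2 libraries with 2, so their p-values are descriptive and add no separate support. The difference between the sets was not tested.

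Against RNAi mutants, whose 2 values lay below those of all 4 double mutants, *Obox3* had a log2 fold change of 1.51 (SE 0.38, 95% interval 0.69 to 2.32), a fold of 2.85. This was the 1 member with an unadjusted p under 0.05, and it missed the threshold after adjustment (adjusted p = 0.199, edgeR). It passed with DESeq2 (0.00722) and without the filter on low counts (0.0290), and adjusted p ranged from 0.00722 to 1 over all alternatives. The highest p belonged to the fits without 1 of the libraries. Both RNAi mutants belonged to the set with high *Gm42418*, and within that set the log2 fold change was 1.57 (adjusted p = 0.112). RNAi mutants and controls overlapped in *Obox3*, and their difference was −0.48 (SE 0.37, 95% interval −1.27 to 0.31). The comparisons of double mutants with controls and with RNAi mutants share the double mutants, and those with controls share the controls.

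**Figure D3:**
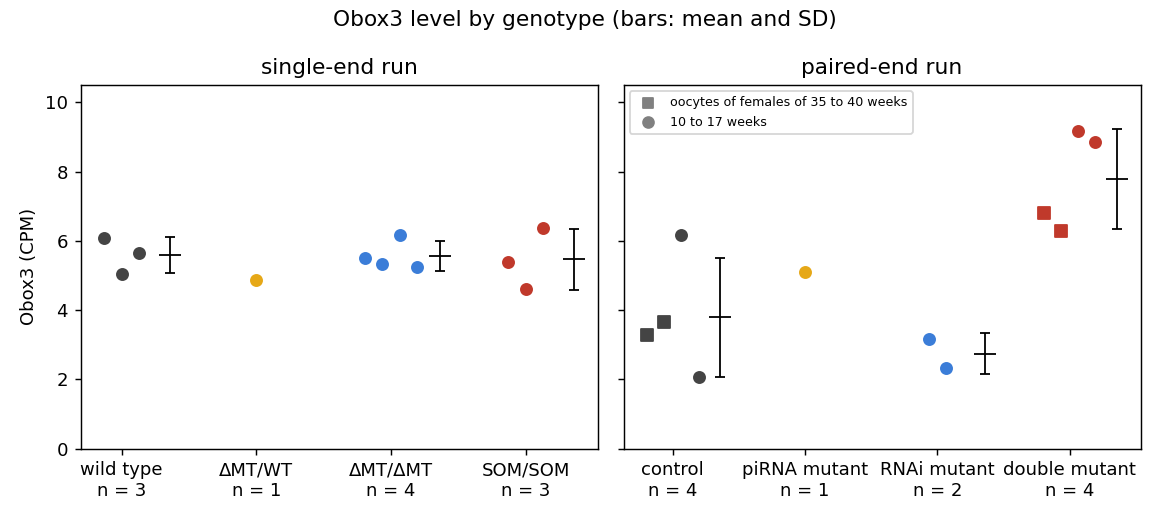
*Obox3* level (CPM) in every library by genotype, with squares for females of 35 to 40 weeks, circles for the others, and bars for the mean and SD of groups with more than 1 library. The 4 double mutants sit between 6.30 and 9.17 CPM and the 4 controls between 2.06 and 6.16 CPM, while the single-end genotypes overlap.

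The 4 maternal members passed no threshold, and they varied more between libraries of 1 genotype in the paired-end run. *Obox2* was at 690, 775, 672 and 967 CPM in double mutants, 737, 685, 1034 and 620 CPM in controls, and 781 and 682 CPM in RNAi mutants. The difference of double mutants from controls was 0.01 (SE 0.16, 95% interval −0.34 to 0.37). *Obox1* was at 429, 495, 409 and 544 CPM in double mutants and 463, 427, 560 and 391 CPM in controls, with 0.03 (SE 0.13). For both genes the groups covered nearly the same range.

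*Obox5* was at 314, 420, 325 and 565 CPM in double mutants, 353, 433, 617 and 313 CPM in controls, and 385 and 337 CPM in RNAi mutants. Its log2 fold changes were −0.08 (SE 0.22) in double mutants and −0.25 (SE 0.27) in RNAi mutants. *Obox7* was at 88.4, 127, 102 and 162 CPM in double mutants, 87.7, 111, 173 and 88.2 CPM in controls, and 94.5 and 93.7 CPM in RNAi mutants, with 0.06 (SE 0.22) and −0.29 (SE 0.28). *Obox6*, which was not tested, was at 0.135, 0.0903, 0.172 and 0.237 CPM in double mutants, 0.173 and 0.163 CPM in RNAi mutants and 0.148, 0.200, 0.222 and 0.155 CPM in controls. These groups overlapped.

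*Obox5* and *Obox7* parted with the 2 sets of libraries, whose part in the results was not tested. How many of all genes part with these sets was not counted, so this is not read as particular to these members. *Obox5* was at 420 to 617 CPM (median 433) in the 5 libraries with low *Gm42418* and at 313 to 385 CPM (median 331) in the 6 with high *Gm42418*, without overlap. *Obox7* was at 111 to 173 CPM (median 138) against 87.7 to 102 CPM (median 91.1), again without overlap. *Obox2* overlapped, at 685 to 1034 CPM (median 803) against 620 to 781 CPM (median 686), and so did *Obox1*, at 427 to 560 CPM (median 495) against 391 to 466 CPM (median 419). Controls and double mutants each held 2 libraries of either set, while both RNAi mutants were in the set with high *Gm42418*. Among controls alone, *Obox5* averaged 525 CPM with low and 333 CPM with high *Gm42418*, and among double mutants alone 493 and 319 CPM.

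**Figure D4:**
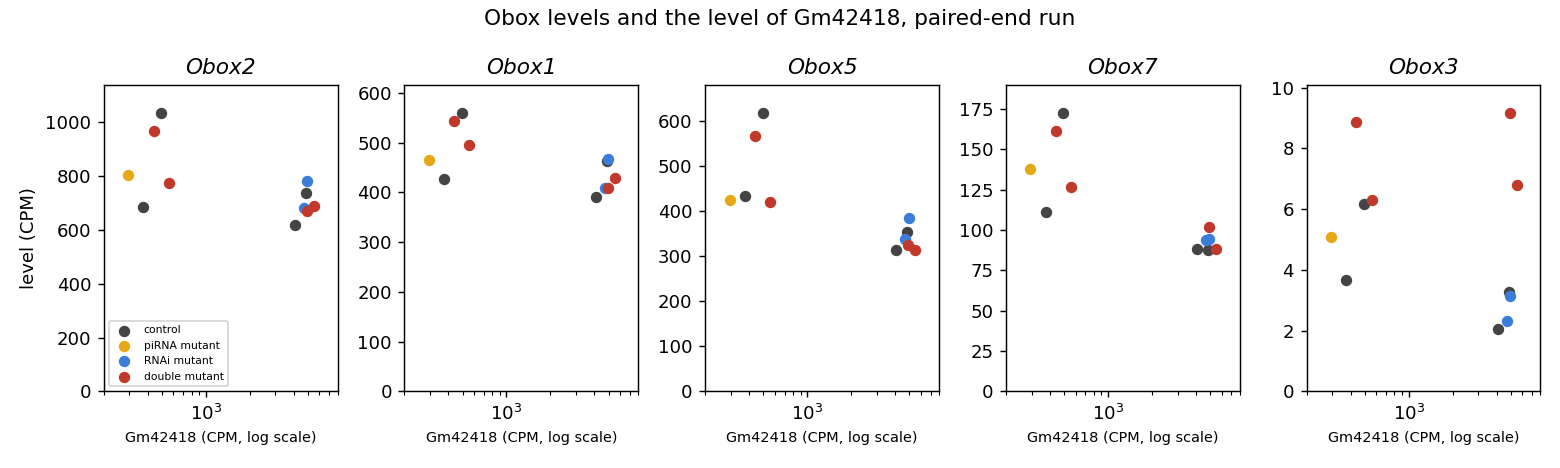
Level of 5 *Obox* genes (CPM, vertical axes from 0) against the level of *Gm42418* (CPM, log scale) in the 11 paired-end libraries, coloured by genotype. *Obox5* and *Obox7* separate at the gap between 557 and 4080 CPM of *Gm42418* whatever the genotype, whereas *Obox3* is highest in double mutants on both sides.

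Age was compared within the paired-end run, by a term for females of at least 35 weeks beside genotype. Of all genes tested 0.0143% were called, 3 in all, and 0 of the 5 members. All 5 had a negative log2 fold change, from −0.36 for *Obox3* to −0.07 for *Obox1*, and none had an unadjusted p under 0.05. The interval of *Obox3* ran from −0.96 to 0.24 and that of *Obox7* from −0.80 to 0.11. With the age term, *Obox3* in double mutants against controls was at 1.02 (adjusted p = 0.0197, edgeR).

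The members differed in how closely their levels moved together from library to library. As a description over 10 single-end and 11 paired-end libraries, which share depth and, in the paired-end run, the *Gm42418* sets, Pearson's r of log2 CPM between *Obox1* and *Obox2* was 0.927 and 0.970. For each, the other was the most alike of 20089 genes by the lower of the 2 values. *Obox5* and *Obox7* had 0.659 and 0.932. The lower r of *Obox1* was 0.498 with *Obox5* and 0.449 with *Obox7*, and that of *Obox2* was 0.505 and 0.547 with them. *Obox3* had a lower r of at most 0.497 with a maternal member (*Obox7*), within the range of the maternal pairs. It was most alike to its pseudogenes *Obox3-ps3* (0.795 and 0.871) and *Obox3-ps6* (0.754 and 0.794), with which it shares reads. Outside the *Obox* symbols, the genes most alike were *Fbxw27*, *Gpn2* and *Rfpl4* for *Obox1*, with a lower r of 0.875, 0.813 and 0.809, and *Ccdc38*, *Nxt1* and *Pigf* for *Obox2*, with 0.848, 0.835 and 0.831. They were *Fbxl6*, *1700051O22Rik* and *Pigf* for *Obox5*, with 0.818, 0.815 and 0.781, and *Rtraf*, *Tex30* and *Gm43409* for *Obox7*, with 0.816, 0.770 and 0.765. For *Obox3* they were *Gm49783*, *Fbxl21* and *Rhebl1*, with 0.658, 0.639 and 0.634.

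Of the 49 other *Obox* symbols, 9 reached a mean of 1 CPM in some genotype, and these were 7 *Obox3* and 2 *Obox4* pseudogenes. The 8 *Obox3* pseudogenes together were at 50.4, 54.3 and 57.6 CPM in wild type and at 52.2, 46.2 and 63.0 CPM in *Dicer* SOM/SOM, so their sum was several times the level of *Obox3* itself. In the paired-end run they were at 23.2, 24.0, 28.2 and 30.0 CPM in double mutants, 16.2, 12.5, 25.9 and 12.9 CPM in controls, and 21.0 and 15.6 CPM in RNAi mutants. The sums of double mutants and controls overlapped, with a log2 difference of 0.70 and a larger SD of 0.488. Of the 7 tested, 1 was called in double mutants against controls, *Obox3-ps4* at 0.97 (SE 0.31, adjusted p = 0.0362, edgeR), and 0 in the other comparisons, where at most 2 had an unadjusted p under 0.05. *Obox3* and its pseudogenes added together were at 30.0, 30.3, 37.4 and 38.8 CPM in double mutants and 19.5, 16.1, 32.1 and 14.9 CPM in controls, and these overlapped, unlike *Obox3* alone. *Obox3-ps8* on chromosome 17 was at 18.9 ± 1.20 CPM in single-end wild type (SD, n = 3) and at 0.350 ± 0.148 CPM in paired-end controls (n = 4). The runs differ in read length, and with it in how reads are divided among copies, so these values are not compared as genotypes.

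The 39 *Obox4* pseudogenes were scarcer. Their sum was 2.75, 3.95 and 3.90 CPM in wild type, 4.64, 4.53, 5.79 and 4.80 CPM in *Dicer* ΔMT/ΔMT and 6.81, 3.23 and 9.40 CPM in *Dicer* SOM/SOM. Wild type and *Dicer* ΔMT/ΔMT did not overlap, whereas *Dicer* SOM/SOM spread over both. Its 2 higher values were in replicates 1 and 3, the single-end libraries with the highest *Gm42418* level in CPM. Replicate 3 also had the lowest total of counts. In the paired-end run the sum was 5.81, 6.00, 8.53 and 7.29 CPM in double mutants, 5.06 and 4.66 CPM in RNAi mutants, 3.88 CPM in the piRNA mutant and 2.86, 2.42, 4.20 and 3.03 CPM in controls. The 3 replicated genotypes did not overlap, in the order controls, RNAi mutants, double mutants, and double mutants were on average 1.16 log2 units above controls with a larger SD of 0.333.

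Of the 39, 12 passed the filter on low counts in the paired-end run. In double mutants against controls 6 of these were called higher and 1 lower, and 0 in every other comparison (edgeR), where at most 5 of the 18 or 12 tested had an unadjusted p under 0.05. A gene that passed the filter only through the genotype in which it is high had to differ, so this count describes them and supports nothing. *Obox4-ps27*, the most abundant of those called, was at 1.07 ± 0.216 CPM in double mutants and 0.357 ± 0.114 CPM in controls (SD, n = 4), which differed by 1.57 on the log2 scale (SE 0.39, adjusted p = 0.0104, edgeR). The 1 called lower, *Obox4-ps34*, is named here after its values were seen: it had 13.5, 2.5, 38 and 12.5 estimated counts in controls and 1 to 3 in double mutants. Its mean in controls was thus carried mostly by replicate 2.

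**Figure D5:**
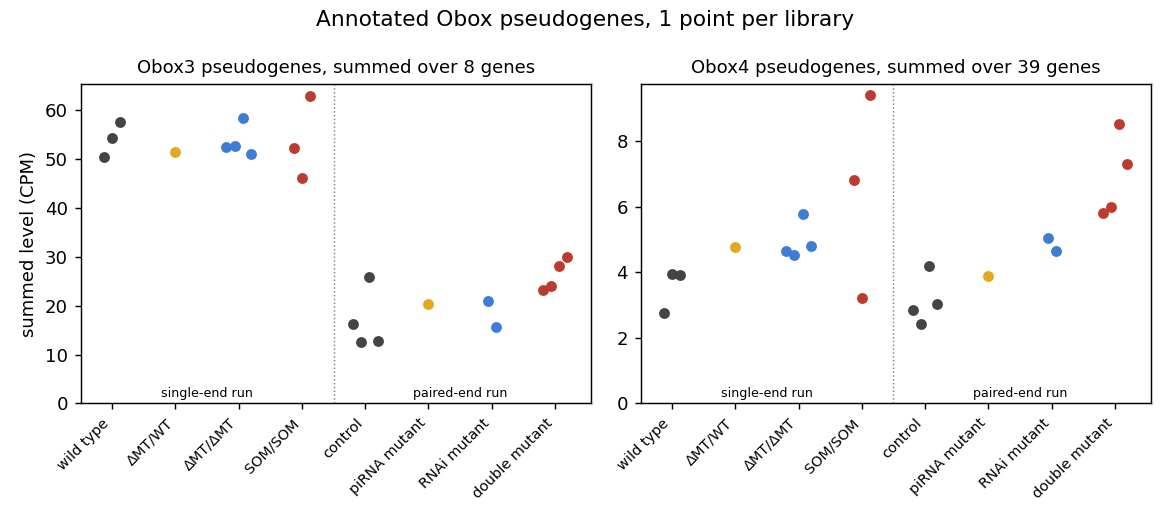
Summed level (CPM) of the 8 *Obox3* pseudogenes (left) and the 39 *Obox4* pseudogenes (right) in every library by genotype, with a dotted line between the runs, whose read lengths differ. The *Obox4* sum is 2.42 to 4.20 CPM in controls and 5.81 to 8.53 CPM in double mutants, and the *Obox3* sums of these genotypes overlap.

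The genes around the cluster gave little to compare. Of the 31 other genes within its span, 3 were tested in the single-end run and 2 in the paired-end run, and 0 were called in any comparison. Other homeobox genes of oocyte and embryo were mostly below the threshold too. Of 21 listed, 11 were tested in the single-end run, where 2 were higher and 0 lower in *Dicer* SOM/SOM, against 28.6% of all genes called. These were *Nobox*, a regulator of oocyte genes, at 0.43 (SE 0.11, adjusted p = 0.0153, edgeR) and *Hdx* at 1.93 (SE 0.30). Of the 10 tested in the paired-end run, 1 was higher in double mutants, *Hdx* at 2.49 (SE 0.45), and 3 were lower, the near-identical copies *Cphx1*, *Cphx2* and *Cphx3*, each at about −0.66 (SE 0.14), which share reads. The same 3 copies were lower in RNAi mutants, each at −0.60 (SE 0.17). Over all genes 21.2% were called in double mutants and 10.7% in RNAi mutants. From RNAi mutants to double mutants 0 of these homeobox genes were called, against 0.314% of all genes.

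Regulators of embryonic genome activation and genes of the 2-cell stage, with which *Obox* genes are usually discussed, were counted in the same way. Of 21 regulators, all tested, 6 were higher and 1 lower in *Dicer* SOM/SOM, 5 higher and 1 lower in *Dicer* ΔMT/ΔMT, 3 higher and 0 lower in RNAi mutants and 3 higher and 2 lower in double mutants against their controls. Over all genes 28.6%, 15.4%, 10.7% and 21.2% were called in these comparisons. *Dppa2*, an activator of 2-cell genes, had 0.98 (SE 0.11) in *Dicer* SOM/SOM and 0.87 (SE 0.11) in double mutants. *Dppa5a*, an RNA-binding protein of pluripotent cells, had 2.56 (SE 0.15) and 1.65 (SE 0.18). The 28 genes of the 2-cell stage had 20 tested in the single-end run, of which *Dicer* SOM/SOM had 12 higher and 1 lower and *Dicer* ΔMT/ΔMT 10 higher and 1 lower. Of 18 tested in the paired-end run, 10 were higher and 0 lower in RNAi mutants and 13 higher and 1 lower in double mutants. *Zscan4d*, of a multicopy family active at the 2-cell stage, had 2.87 (SE 0.27) in *Dicer* SOM/SOM, 3.26 (SE 0.26) in RNAi mutants and 2.43 (SE 0.23) in double mutants. Many 2-cell genes had few counts in controls, such as *Usp17ld* with 1.5 to 8 estimated counts in controls and 122 to 267 in double mutants. Such genes passed the filter through the mutants, so these counts describe the list and are not set against the *Obox* members. From RNAi mutants to double mutants 0 genes of either list were called. Of the oocyte markers, 0 were higher and 2 lower in *Dicer* SOM/SOM, 1 lower in *Dicer* ΔMT/ΔMT, 1 lower in RNAi mutants and 3 lower in double mutants.

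The granulosa and cumulus markers, of which 17 were tested in each run, had 3 higher and 2 lower for *Dicer* SOM/SOM, and 1 higher and 1 lower in double mutants. Over all genes 28.6% and 21.2% were called in these comparisons. The markers summed to 158 to 178 CPM in wild type, 164 to 246 CPM in *Dicer* ΔMT/ΔMT and 189 to 247 CPM in *Dicer* SOM/SOM. Wild type and *Dicer* SOM/SOM did not overlap, and *Dicer* ΔMT/ΔMT overlapped both. In controls the sum was 204 to 254 CPM and in double mutants 204 to 271 CPM. The blood and immune markers had 1 higher and 1 lower of 4 tested in *Dicer* SOM/SOM and 3 higher and 0 lower of 5 tested in double mutants, beside the same shares over all genes. They summed to 117 to 133 CPM in wild type, 80.4 to 130 CPM in *Dicer* SOM/SOM, 91.9 to 132 CPM in controls and 103 to 147 CPM in double mutants. The part of these cells in the *Obox* levels was not tested.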

How the data were processed

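RNA-seq of GV oocytes was measured in 22 libraries of 2 runs, with 50-base single-end and 75-base paired-end reads. Per the labels and the study's methods, the authors mapped reads with STAR 2.5.3a to mm10 (GRCm38) and made the deposited values, each an estimated count per GENCODE M15 gene, with featureCounts, ignoring strand and dividing reads that fit several places or genes between them. The counts were not normalized. A second table, of repeat groups, was not used here.

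Symbols were matched by gene ID for 52403 of 52636 genes, and all 6 members matched. Counts were rounded, filtered (filterByExpr, minimum count 10 and minimum total 15, over groups with at least 2 libraries), scaled by TMM and tested per run with edgeR 4.0.16 (R 4.3.3), quasi-likelihood F test, Benjamini-Hochberg adjustment over all genes and a threshold of 0.05. The single-end fit held 10 libraries without the *Dicer* ΔMT/WT library, the paired-end fit 11. The prior count was 0.125 for fold changes and 2 for log2 CPM. Standard errors were derived from the F statistic. The steps were tested on simulated data with known changes.

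The members and gene lists were chosen with earlier results of these data known. Named genes were all members, other *Obox* symbols of at least 1 CPM in a group (at most 10), up to 4 called genes per list, and the 3 most alike genes per member. Of the listed genes, 2 (*Dppa3* and *Nr5a2*) stand in more than 1 list. Alternatives were DESeq2 1.42.0, its size factors, no filter, unrounded counts, the compared groups alone, an age term, *Gm42418* as a covariate, a replicate block and each library left out. Fits within the sets parted at 1000 CPM of *Gm42418* were added after the values were seen.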

Additional observations from a re-analysis of the deposited data

Results flagged for a closer look

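*Obox6* stood out in the 2 single libraries that entered no comparison. It was at 0.567 CPM (47.8 estimated counts) in the *Dicer* ΔMT/WT library, above the 0.119 to 0.258 CPM of the 3 wild-type libraries. In the piRNA mutant it was at 0.445 CPM (16.2 estimated counts), above the 0.148 to 0.222 CPM of the 4 controls. With 1 library each, neither difference was tested. No library of a group of 4 lay apart from the others by Dixon's test for a member or for the sum of the members, over 21 groups tested.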

How the results depend on the processing

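Over 31 settings, 673 values were recomputed, none of which reversed a call. In double mutants against controls the count of members called fell from 1 to 0 with the replicate number as a block (*Obox3* 0.74, adjusted p = 0.0574, edgeR) and in the libraries with low *Gm42418* (0.63, adjusted p = 0.402, 2 against 2), and ranged from 0 to 1 when 1 library was left out (*Obox3* 0.83 to 1.38, called in 9 of 11). In double mutants against RNAi mutants it was 1, *Obox3*, without the filter (1.52), with the replicate block (1.82, adjusted p = 0.0480) and with DESeq2 (1.52). In *Dicer* SOM/SOM against wild type it was 1, *Obox2*, with DESeq2 size factors (−0.27), with DESeq2 (−0.27) and, in a range of 0 to 1, without replicate 1 of *Dicer* SOM/SOM (−0.31). Against *Dicer* ΔMT/ΔMT it was 1 with DESeq2 (*Obox2*, −0.30). The cause was not tested. The other comparisons kept a count of 0. Of the values that passed no threshold in either fit, 58 changed sign. The labels do not say whether replicate numbers pair the libraries. Same-numbered libraries correlated at −0.0251 to 0.054 over 9 single-end pairs and −0.0691 to 0.177 over 6 paired-end pairs. Of the libraries, 3 of 9 and 4 of 9 correlated best with their own number. Between double mutants and controls the same-numbered pairs had 0.135 (1o), 0.0276 (2o) and 0.177 (2). Paired-end pairs of unlike number had −0.183 to 0.107. With 2 RNAi mutants the values mirror each other, so these correlations cannot decide on pairing. Over all genes, calls from RNAi to double mutants went from 66 to 147 without the filter and 170 with DESeq2, for age from 3 to 186 and 63 (2 with DESeq2 size factors or unrounded counts), between the *Dicer* mutants from 1702 to 2776 with DESeq2, in RNAi mutants from 2247 to 1228 with the block, and in double mutants from 4446 to 1488 in the libraries with low *Gm42418*. Depth limits *Obox6*, and shared reads limit *Obox1*, *Obox2* and *Obox3*.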
